A study of Oryza sativa with 12 samples.

Results

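Culms of rice labelled as a TAC4 knockout were compared with wild-type culms at the heading stage, gene by gene. The comparison used 6 RNA libraries of japonica rice cultivar Zhonghua 11, 3 from a line labelled TAC4-KO and 3 from wild type (WT). It took in the 19184 of 55986 listed genes whose mean over the 12 libraries of the series was at least 1 FPKM, an expression unit scaled for gene length and sequencing depth. The remaining 6 libraries, 3 of a TAC4L-KO line and 3 of a line lacking both genes (double-KO), were used to estimate the spread and for the direct comparisons between mutants given last. The sample titles speak of knockouts and the genotype field of knockdowns. The labels name neither the edit, nor the number of independent lines, nor whether the replicates were separate plants, so the p-values rest on differences among these libraries that may be technical alone. Wherever 3 values are given for a group, they are the FPKM of replicates 1 to 3 in that order.

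The culm is the jointed stem of a grass, and its strength comes from thick secondary walls of cellulose, xylan and lignin in fibre and vascular cells. Around heading the culm also carries out photosynthesis in its green outer layers and stores sucrose and starch that later feed the grain. TAC4 (Tiller Angle Control 4) is known in rice as a nuclear protein of shoot gravitropism whose loss widens the angle between tillers, and TAC4L is its relative by name. Tiller angle is set through lateral auxin transport, in which LAZY1 promotes upright growth and TAC1 promotes spreading.

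TAC4 itself (LOC_Os02g25230) rose in the libraries labelled TAC4-KO, with 13.5, 9.13 and 11.5 FPKM, against 7.32, 4.75 and 5.59 FPKM in WT. Every TAC4-KO library lay above every WT library. The log2 change was 0.85 (SE 0.19, limma adjusted p = 0.0062), and an exact two-sided permutation test of this single gene gave p = 0.1, the smallest that 3 against 3 libraries allow. This level goes against the word knockdown. FPKM over a whole gene does not read a small edit, so the level does not check the word knockout, and the groups are called here by their labels. TAC4 averaged 8.80 FPKM in TAC4L-KO and 14.98 FPKM in double-KO, against 11.40 FPKM in TAC4-KO and 5.89 FPKM in WT. It did not pass between TAC4-KO and TAC4L-KO (log2 difference 0.33, limma adjusted p = 0.336). Nor did it pass between double-KO and TAC4-KO (0.38, limma adjusted p = 0.209). The rise was thus not shown to be particular to the TAC4-KO line. TAC4L (LOC_Os04g19140) was low in both groups, at 0.337, 0.515 and 0.282 FPKM in TAC4-KO and 0.883, 0.453 and 0.798 FPKM in WT, and lay under the expression filter.

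Relative depth, read from the spacing of low FPKM values, was 0.818, 0.817 and 1.03 in TAC4-KO, against 0.468, 1.00 and 1.00 in WT (WT replicate 2 set to 1), a range of 2.21-fold. Between 25344 and 26972 genes had a value above 0. Log2 values correlated across genes at 0.955 to 0.970 within TAC4-KO, at 0.911 to 0.957 within WT, and at 0.768 to 0.901 between the groups. Genes are not independent replicates, and these coefficients are descriptions. WT replicate 3 stood apart from the other WT libraries. It was lowest in the summed light-harvesting genes and highest in several jasmonate and phenylpropanoid genes, and values without it are given where they matter. The secondary wall cellulose synthases, markers of fibre and xylem, and OSH15, a homeobox gene of the internode, were well expressed in all 6 libraries, as a culm sample should show. OSH15 stood at 196, 205 and 185 FPKM in TAC4-KO and at 184, 271 and 204 FPKM in WT.

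At an adjusted p under 0.05 in limma, 6693 genes (34.9%) differed between TAC4-KO and WT, of which 3528 (18.4%) were higher and 3165 (16.5%) lower. The tails were uneven. With a fold of at least 8 on the log2(FPKM + 1) scale, 39 of the called genes were higher and 228 lower, and with a fold of at least 16 the counts were 6 and 65. In 4836 genes (25.2%) every TAC4-KO library lay above every WT library, and in 4393 (22.9%) every TAC4-KO library lay below. The median log2 change over all genes tested was 0.04. Against this background 32 lists of known genes, 280 of them tested, held 87 higher and 53 lower calls. The lists were chosen with earlier results of these data known, so no excess of calls in them was tested. Each list count below stands against the shares of 18.4% higher and 16.5% lower over all genes. Where a call is said below to be lost, the libraries named are those left out. Calls of named genes lost in a fit of the 6 libraries alone are given at the end. Genes of light harvesting, starch synthesis and the primary wall were mostly higher, and genes of dehydration response and water channels mostly lower.

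**Figure D1:**
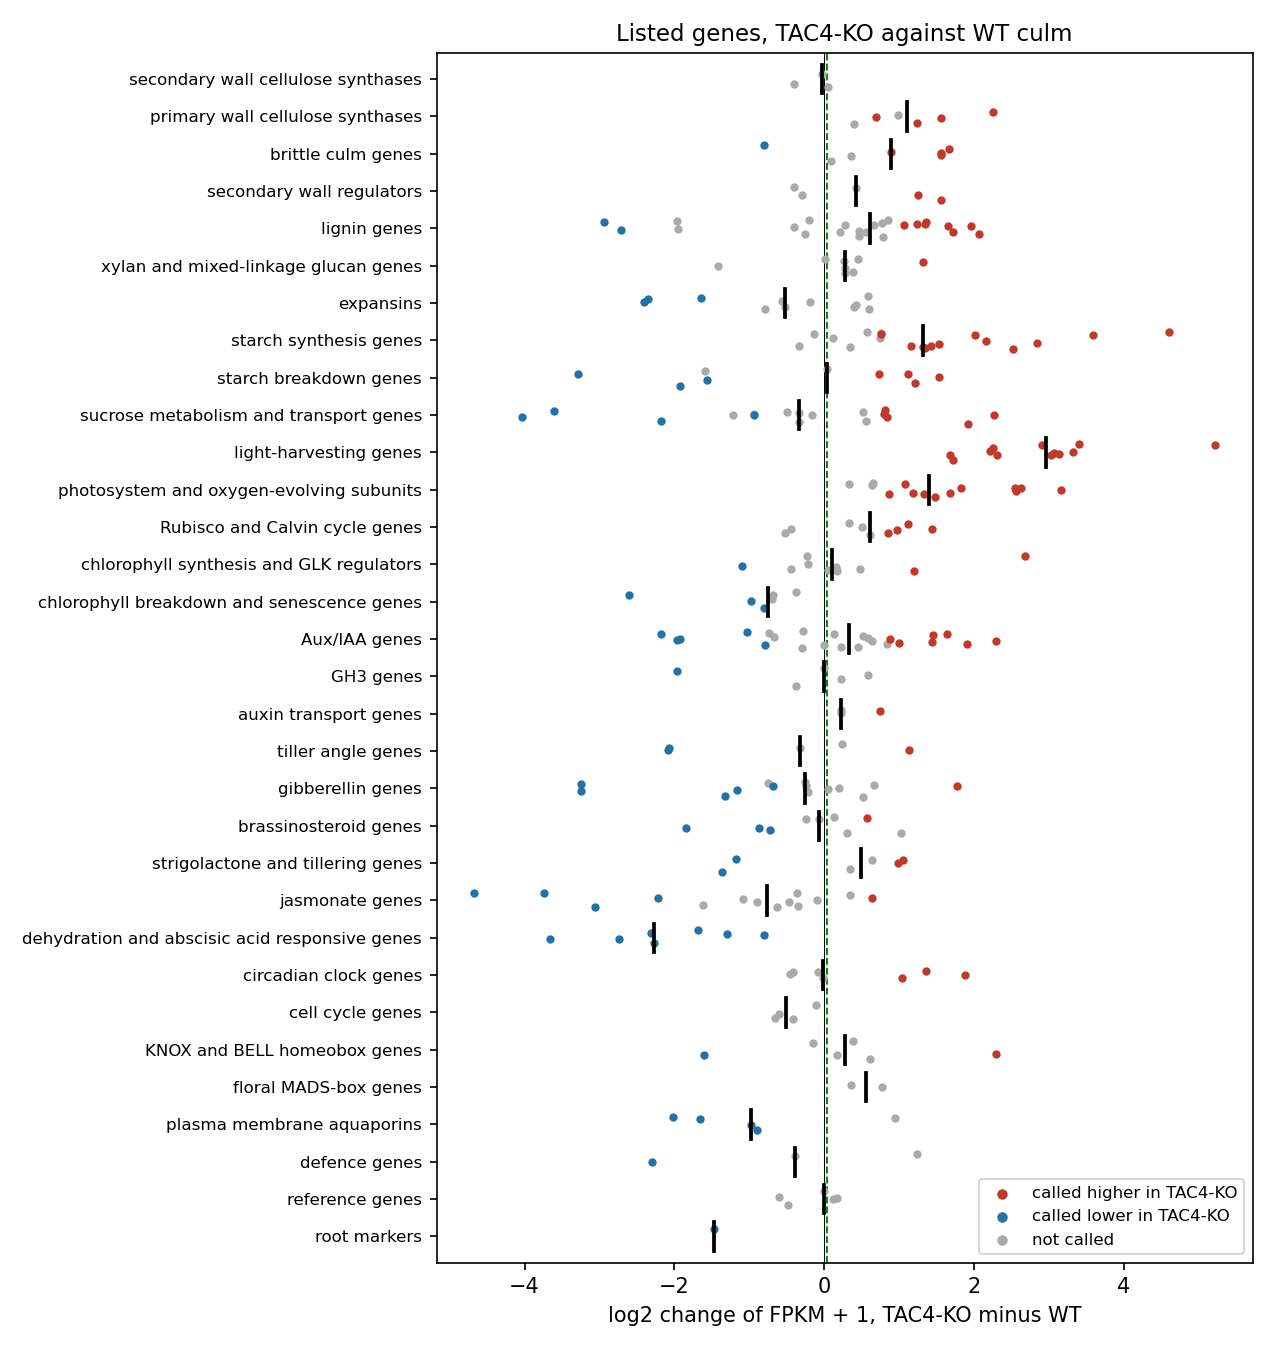
Log2 change of FPKM + 1, TAC4-KO minus WT, for each tested gene of the 32 lists (1 point per gene, 1 row per list, vertical bar at the list median, dashed line at the median of all genes tested, 0.04). Red points were called higher and blue points lower at a limma adjusted p under 0.05. The light-harvesting row lies wholly to the right and the dehydration row wholly to the left.

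Shoot gravitropism and auxin came first, since TAC4 acts there. LAZY1 (LOC_Os11g29840), the promoter of upright tillers, was low, at 1.02, 0.786 and 0.289 FPKM in TAC4-KO, against 6.07, 6.06 and 6.16 FPKM in WT. The WT libraries were almost equal (SD 0.053 FPKM) and no TAC4-KO library came near them. Its log2 change was -2.09 with an SE of 0.23 (limma adjusted p = 0.00029). TAC1 (LOC_Os09g35980), which opens the tiller angle, had 3.23, 2.43 and 3.36 FPKM in TAC4-KO, against 0.722, 1.18 and 0.608 FPKM in WT. It rose by 1.13 (SE 0.25, limma adjusted p = 0.0059). WOX11, a homeobox gene placed downstream of gravity-induced auxin flow in rice, had 0.0412, 1.03 and 0.0979 FPKM in TAC4-KO, against 5.15, 2.54 and 6.87 FPKM in WT. It fell by 2.07 (SE 0.32, limma adjusted p = 0.0011). LPA1, a zinc finger regulator of shoot angle, and HSFA2D, a heat shock factor upstream of LAZY1, did not pass (log2 changes 0.24 and -0.32, limma adjusted p = 0.35 and 0.44). Of the 5 tested tiller angle genes, 1 was thus higher and 2 lower, and 2 of the 7 listed lay under the filter.

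The Aux/IAA family, short-lived repressors whose genes respond to auxin, had calls in both directions. Of 24 tested members (30 listed), 7 (29.2%) were higher and 5 (20.8%) lower, with a median log2 change of 0.34. Over all genes tested the shares were 18.4% and 16.5%. IAA4 had 44.2, 25.1 and 63.1 FPKM in TAC4-KO, against 11.9, 7.59 and 4.75 FPKM in WT (log2 change 2.30, SE 0.39, limma adjusted p = 0.0016). IAA13 had 151, 140.1 and 169 FPKM in TAC4-KO and 57.5, 36.4 and 30.3 FPKM in WT (1.91, limma adjusted p = 0.0014). TAC4-KO and WT libraries did not overlap in these genes, nor in the next 2, which were lower. IAA30 had 18.3, 15.8 and 10.8 FPKM in TAC4-KO, against 64.5, 51.7 and 64.9 FPKM in WT (-1.96, SE 0.27, limma adjusted p = 0.00066). IAA18 had 0.427, 1.07 and 0.246 FPKM in TAC4-KO, against 4.41, 7.79 and 3.17 FPKM in WT (-1.92, limma adjusted p = 0.0020). The auxin uptake carrier AUX1 stood at 236 ± 35.4 FPKM in TAC4-KO and 142 ± 36.1 FPKM in WT (SD, n = 3 each; log2 change 0.75, limma adjusted p = 0.015), a call lost without TAC4-KO replicate 2 (0.63) or WT replicate 3 (0.60). The AUX1 call was also lost in a fit of the 6 libraries alone (limma adjusted p = 0.055). The exporters PIN1a and PIN1b did not pass (0.23 and 0.23, limma adjusted p = 0.70 and 0.51). Of 5 tested GH3 genes, whose enzymes conjugate auxin to amino acids, GH3.8 alone was called, lower at 1.93 ± 1.11 FPKM in TAC4-KO and 12.5 ± 10.5 FPKM in WT (SD, n = 3 each). Its call was lost without TAC4-KO replicate 1 (log2 change -1.67) or WT replicate 3 (-1.36).

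Light-harvesting genes, which encode the chlorophyll-binding antenna proteins of the photosystems, rose throughout. All 12 tested members were called higher, whichever of the 6 libraries was left out, with a median log2 change of 2.97. Their summed level was 8061, 9539 and 11063 FPKM in TAC4-KO, against 1293, 1183 and 581 FPKM in WT. The antenna gene LOC_Os01g52240 led, with 5134, 5365 and 4491 FPKM in TAC4-KO, against 235, 191 and 51.2 FPKM in WT. TAC4-KO libraries were close to one another in this gene, and its log2 change was 5.22 with an SE of 0.45 (limma adjusted p = 0.00011), or 4.55 without WT replicate 3. LHCB2, an antenna protein of photosystem II, had 47.4, 91.0 and 96.1 FPKM in TAC4-KO and 12.2, 8.70 and 5.29 FPKM in WT (3.02, limma adjusted p = 0.00030). LHCA1, of the photosystem I antenna, had 308, 381 and 732 FPKM in TAC4-KO and 67.3, 70.1 and 40.9 FPKM in WT (2.91, limma adjusted p = 0.00057). LHCB6 had 223, 214 and 351 FPKM in TAC4-KO and 29.6, 28.4 and 17.8 FPKM in WT (3.32, limma adjusted p = 0.0015). All TAC4-KO libraries were several times above all WT libraries in these antenna genes. LHCA4, LHCB4 and LHCA2 were also higher, by 3.41, 3.07 and 2.21 on the log2 scale. The antenna gene LOC_Os09g17740 was unlike these in that its TAC4-KO values spread widely, at 10.4, 34.6 and 105 FPKM, against 3.42, 2.21 and 3.43 FPKM in WT. Its log2 change of 3.14 became 3.95 without TAC4-KO replicate 1 and 2.34 without TAC4-KO replicate 3. Antenna genes are near-identical in part, and reads shared between copies could have been split between them.

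Subunits of the photosystems and of the oxygen-evolving complex followed, with 11 of 14 higher and 0 lower (median log2 change 1.40). PSBR, a small subunit near the oxygen-evolving complex, had 578, 547 and 543 FPKM in TAC4-KO, against 71.4, 75.6 and 42.4 FPKM in WT (3.16, SE 0.44, limma adjusted p = 0.00076). PSAE, at the stromal face of photosystem I, had 709, 844 and 985 FPKM in TAC4-KO and 166, 193 and 89.8 FPKM in WT (2.55, limma adjusted p = 0.00029). PSAK and PSAO, at the antenna side of photosystem I, rose by 2.63 and 2.56 (limma adjusted p = 0.00069 and 0.00051). The members ranged down to PSBP, PSAH and PSAL, which did not pass (log2 changes 0.65, 0.64 and 0.34). Between 8 and 12 were called with a library left out, fewest without TAC4-KO replicate 3.

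**Figure D2:**
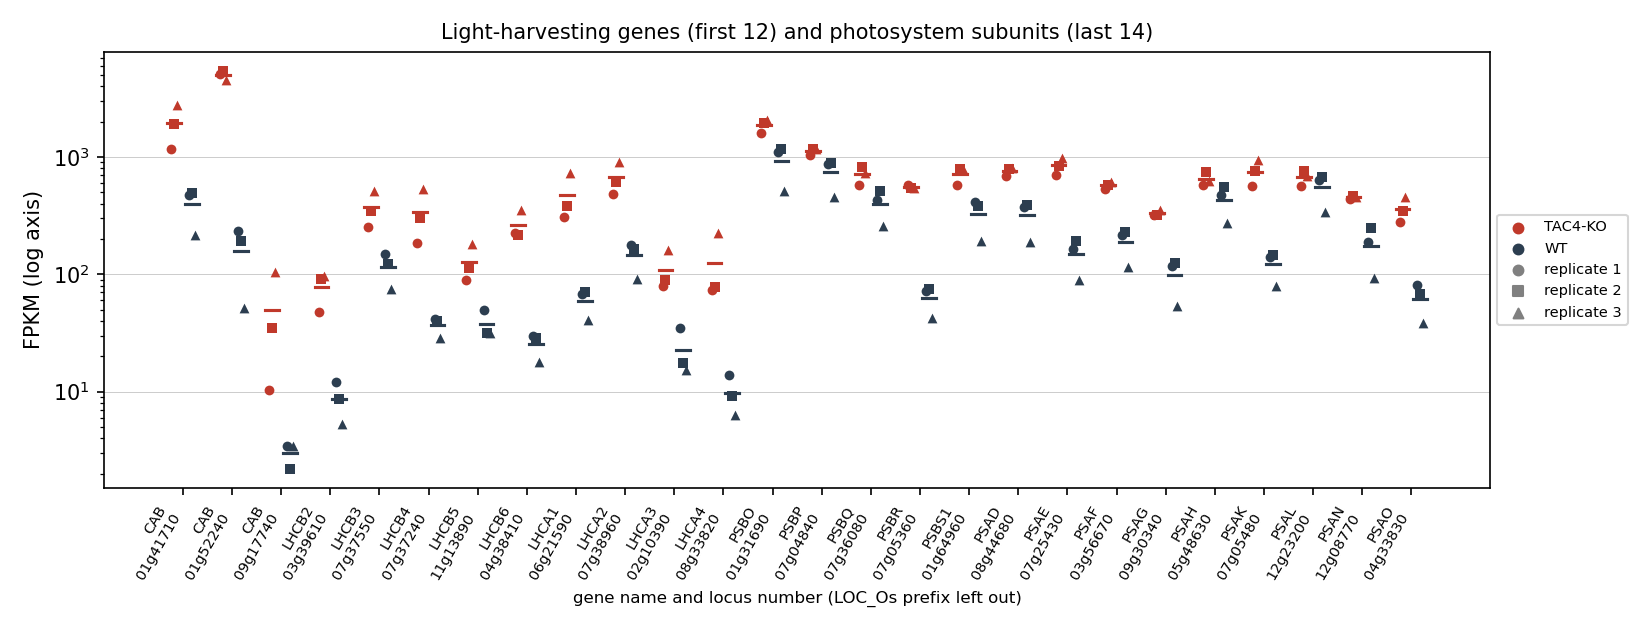
FPKM (log axis) of 12 light-harvesting genes and 14 photosystem and oxygen-evolving subunits in each library, TAC4-KO in red left of WT in dark blue, with a bar at the group mean of 3 libraries. The gap is widest at LOC_Os01g52240 (4997 against 159 FPKM) and narrows to overlap at PSAL, and WT replicate 3 (triangles) is the lowest WT library in most genes.

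Carbon fixation genes had smaller changes. Of 9 Rubisco and Calvin cycle genes, 4 were higher and 0 lower, with a median log2 change of 0.61, and the count was 2 higher without TAC4-KO replicate 3, and 1 higher and 2 lower without WT replicate 3. The dominant Rubisco small subunit gene LOC_Os12g19381 did not pass, at 3571, 4149.8 and 3576 FPKM in TAC4-KO, against 6680.2, 6372 and 3139 FPKM in WT (-0.44, limma adjusted p = 0.27). Every TAC4-KO library lay below WT replicates 1 and 2 and above WT replicate 3. It was 1 of the 2 genes called lower without WT replicate 3. The summed level of the list was 6605, 7140 and 6767 FPKM in TAC4-KO, against 8985, 8859 and 4474 FPKM in WT. GAPB, a Calvin cycle dehydrogenase subunit, had 479, 538 and 635 FPKM in TAC4-KO and 308, 380.3 and 238 FPKM in WT (0.85, limma adjusted p = 0.010). SBPase, a Calvin cycle phosphatase, had 215 ± 29.0 FPKM in TAC4-KO and 114 ± 41.6 FPKM in WT (SD, n = 3 each), and its call at a log2 change of 0.97 was lost without TAC4-KO replicate 3 (0.89) or WT replicate 3 (0.73). In a bulk sample a larger green layer and more RNA per green cell cannot be told apart. What part a different share of green tissue had in the rise of antenna genes was not tested.

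Of 10 genes for chlorophyll synthesis and its control, 2 (20%) were higher and 1 (GLK1, 10%) lower, against 18.4% and 16.5% of all genes. PORA, the light-dependent protochlorophyllide reductase, had 163, 136 and 105 FPKM in TAC4-KO, against 18.8, 20.8 and 19.8 FPKM in WT (2.68, SE 0.43, limma adjusted p = 0.0013). YGL1, chlorophyll synthase, had 93.4, 96.8 and 112 FPKM in TAC4-KO and 29.9, 54.2 and 48.6 FPKM in WT (1.21, limma adjusted p = 0.0032). GLK1, a transcription factor that activates photosynthesis genes, moved the other way, at 16.3, 50.7 and 21.2 FPKM in TAC4-KO, against 49.3, 94.5 and 39.3 FPKM in WT. These ranges overlapped, and its call (-1.10, limma adjusted p = 0.043) was lost without TAC4-KO replicate 1 (-0.77) or 3 (-0.95) and without WT replicate 1 (-1.20) or 2 (-0.73).

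Of 6 genes for chlorophyll breakdown and senescence, 0 were higher and 3 lower (median -0.75), and 2 to 3 were lower with a library left out. NAP, a NAC factor that speeds leaf senescence, had 0.222, 0.633 and 0.276 FPKM in TAC4-KO, against 7.36, 15.7 and 3.105 FPKM in WT (-2.61, SE 0.43, limma adjusted p = 0.0015). PAO, the oxygenase that opens the chlorophyll ring, had 3.58, 4.24 and 3.197 FPKM in TAC4-KO and 6.51, 9.36 and 8.99 FPKM in WT (-0.98, limma adjusted p = 0.0054). Both genes had their highest TAC4-KO library below their lowest WT library. NYC1, a chlorophyll b reductase, had 15.4 ± 0.343 FPKM in TAC4-KO and 28.4 ± 8.64 FPKM in WT (SD, n = 3 each; log2 change -0.80). Its call was lost without TAC4-KO replicate 1 (-0.81), 2 (-0.79) or 3 (-0.81), WT replicate 1 (-0.86) or WT replicate 2 (-0.58).

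Starch synthesis genes rose in TAC4-KO, and the spread between its libraries was large. Of 19 tested members (23 listed), 12 were higher and 0 lower, with a median log2 change of 1.32 and between 10 and 12 called with a library left out. The summed level was 2367, 1641 and 4756 FPKM in TAC4-KO, against 442, 415 and 407 FPKM in WT. ADP-glucose pyrophosphorylase makes the sugar nucleotide for starch, and its large subunit AGPL1 (LOC_Os05g50380) had 1159, 618 and 2495 FPKM in TAC4-KO, against 55.0, 34.2 and 62.3 FPKM in WT. It rose by 4.60 (SE 0.48, limma adjusted p = 0.00025). Its small subunit partner AGPS2 had 11.5, 11.6 and 19.7 FPKM in TAC4-KO and 2.73, 3.27 and 2.15 FPKM in WT (2.01, limma adjusted p = 0.00039). TAC4-KO replicate 3 was the highest library in both.

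TAC4-KO replicate 3 was also the highest library in the enzymes that build and branch the chains. GBSSII, the granule-bound starch synthase of vegetative tissue that makes amylose, had 441, 248 and 892 FPKM in TAC4-KO, against 43.4, 34.1 and 35.2 FPKM in WT (3.59, SE 0.40, limma adjusted p = 0.00029). The soluble synthase SSIIb had 226, 232 and 401 FPKM in TAC4-KO and 46.7, 38.1 and 29.6 FPKM in WT (2.85, limma adjusted p = 0.00029). SSI, another soluble synthase, had 55.8, 37.2 and 85.3 FPKM in TAC4-KO and 9.54, 9.33 and 8.19 FPKM in WT (2.52, limma adjusted p = 0.00062). These synthases extend the glucan chains, which branching enzymes then link. The branching enzyme BEI had 86.7, 85.3 and 129 FPKM in TAC4-KO, against 42.6, 43.5 and 44.1 FPKM in WT (1.17, limma adjusted p = 0.0030). PHO1 (LOC_Os03g55090), here the plastidial starch phosphorylase, had 154, 212 and 428 FPKM in TAC4-KO and 59.5, 54.3 and 46.0 FPKM in WT (2.16, limma adjusted p = 0.0020). The 7 members that did not pass included AGPL2, AGPL3, AGPS1, SSIIc and SSIVb, with log2 changes from -0.33 to 0.76.

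**Figure D3:**
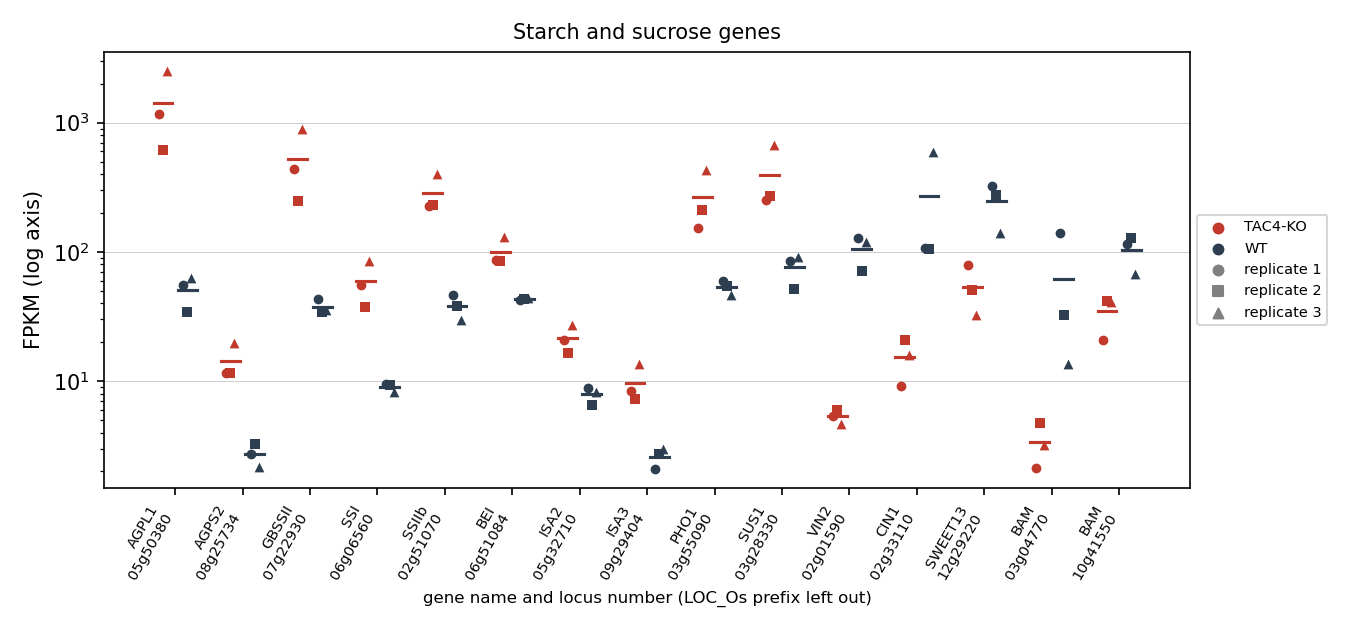
FPKM (log axis) of starch and sucrose genes, picked among those called, in each library. TAC4-KO is in red left of WT in dark blue, with a bar at the group mean of 3 libraries. From AGPL1 to SUS1 every TAC4-KO library lies above every WT library, and from VIN2 to the last BAM gene every TAC4-KO library lies below.

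Of 9 tested starch breakdown genes, 4 were higher and 3 lower (12 listed, median 0.04), and 2 were higher without TAC4-KO replicate 3, WT replicate 1 or WT replicate 3. The higher calls that were lost were those of GWD1, which phosphorylates starch, and SEX4, a glucan phosphatase. The disproportionating enzymes DPE1 and DPE2, which rework short glucans, rose by 1.21 and 1.53 (limma adjusted p = 0.0019 and 0.0035). Of the beta-amylase genes, which release maltose, 2 fell. LOC_Os10g41550 had 20.9, 41.7 and 41.2 FPKM in TAC4-KO, against 114, 129 and 67.6 FPKM in WT (-1.57, limma adjusted p = 0.0059). LOC_Os03g04770 had 2.14, 4.76 and 3.17 FPKM in TAC4-KO and 140.3, 32.7 and 13.6 FPKM in WT. WT spanned a wide range in this gene, and its log2 change of -3.28 became -2.39 without WT replicate 1 and -4.03 without WT replicate 3. The beta-amylase LOC_Os10g32810 did not pass (0.04).

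Sucrose metabolism and transport held 5 higher (29.4%) and 4 lower (23.5%) of 17 tested genes (24 listed, median -0.33), against 18.4% and 16.5% of all genes. Without TAC4-KO replicate 1 the higher count was 2, since the calls of the sucrose synthases SUS5 and SUS6 and the transporter SUT4 were lost, and it was 3 without TAC4-KO replicate 3, WT replicate 1 or WT replicate 2. Vacuolar invertase VIN2, which splits stored sucrose, had 5.40, 5.93 and 4.67 FPKM in TAC4-KO, against 127, 70.9 and 119.9 FPKM in WT (-4.04, SE 0.45, limma adjusted p = 0.00030). Cell wall invertase CIN1 had 9.23, 20.7 and 15.8 FPKM in TAC4-KO, against 106, 105 and 594 FPKM in WT, a log2 change of -3.61 (limma adjusted p = 0.0032) that became -2.79 without WT replicate 3. SWEET13, a sucrose exporter, had 78.6, 50.3 and 32.7 FPKM in TAC4-KO and 326, 275 and 139 FPKM in WT (-2.17, limma adjusted p = 0.0033). SUT2, which moves sucrose out of the vacuole, had 47.9, 46.6 and 63.4 FPKM in TAC4-KO and 97.0, 100.2 and 106 FPKM in WT (-0.94, limma adjusted p = 0.0016). In these 4 genes no TAC4-KO library lay within the WT range. Sucrose synthase SUS1, which yields UDP-glucose, was higher at 251, 273 and 666 FPKM in TAC4-KO, against 84.7, 51.5 and 91.2 FPKM in WT (2.26, SE 0.51, limma adjusted p = 0.0062). SPS11, a sucrose phosphate synthase, had 14.8, 22.9 and 36.8 FPKM in TAC4-KO and 6.21, 7.05 and 3.48 FPKM in WT (1.93, limma adjusted p = 0.0017).

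In the cell wall, the cellulose synthases of the secondary wall did not pass in TAC4-KO, while those of the primary wall mostly rose. CESA4 had 487, 168 and 224 FPKM in TAC4-KO, against 338, 252 and 192 FPKM in WT. CESA7 had 382, 146 and 159 FPKM in TAC4-KO, against 358, 283 and 205 FPKM in WT. CESA9 had 506, 187 and 214 FPKM in TAC4-KO, against 344, 315 and 199.9 FPKM in WT. TAC4-KO replicate 1 was the highest of the 6 libraries in all 3 genes and TAC4-KO replicate 2 the lowest, so the groups overlapped. Their log2 changes were 0.06, -0.41 and -0.03 (SE 0.40, 0.40 and 0.43, limma adjusted p = 0.93, 0.44 and 0.96). The median of -0.03 became -0.48 without TAC4-KO replicate 1 and 0.24 without TAC4-KO replicate 2, and 0 were called by limma with any library left out. At an unadjusted p under 0.05 the count was also 0.

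Of 6 tested primary wall cellulose synthases, 4 were higher and 0 lower (median 1.11). CESA8 had 501, 239.7 and 466 FPKM in TAC4-KO, against 96.5, 65.9 and 78.0 FPKM in WT (2.26, SE 0.39, limma adjusted p = 0.0018). CESA3 had 263, 199 and 225 FPKM in TAC4-KO and 103, 89.1 and 95.3 FPKM in WT (1.24, SE 0.20, limma adjusted p = 0.0015). Both remained called with any 1 library left out. CESA1 had 381, 178 and 368 FPKM in TAC4-KO and 119, 61.8 and 130.2 FPKM in WT (1.56, limma adjusted p = 0.014), a call lost without TAC4-KO replicate 1 (1.37), TAC4-KO replicate 3 (1.39) or WT replicate 2 (1.23). CESA2 had 31.7, 28.5 and 25.1 FPKM in TAC4-KO and 19.98, 18.4 and 13.6 FPKM in WT (0.69, limma adjusted p = 0.012), a call lost without TAC4-KO replicate 1 (0.62). Without that library the list count was 2. CESA5 and CESA6, the lowest of the family, did not pass (0.98 and 0.40, limma adjusted p = 0.089 and 0.53).

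**Figure D4:**
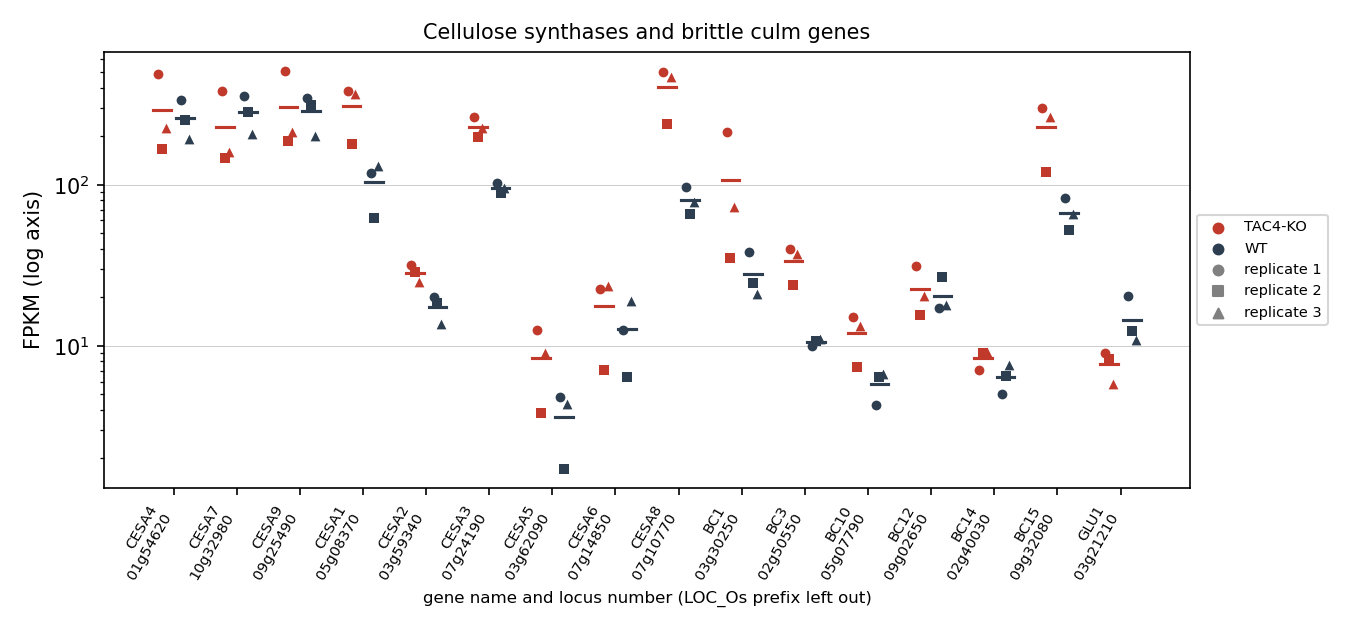
FPKM (log axis) of 9 cellulose synthases and 7 brittle culm genes in each library, TAC4-KO in red left of WT in dark blue, with a bar at the group mean of 3 libraries. The first 3 genes, of the secondary wall, overlap between groups, whereas CESA1, CESA2, CESA3 and CESA8 do not.

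Brittle culm genes, named for mutants whose stems snap, held 4 higher and 1 lower of 7 (median 0.89), and 2 higher without TAC4-KO replicate 1, TAC4-KO replicate 3 or WT replicate 1. BC3, a dynamin-related protein of membrane traffic, had 39.9, 24.0 and 37.3 FPKM in TAC4-KO, against 9.95, 10.6 and 11.0 FPKM in WT (1.56, SE 0.23, limma adjusted p = 0.00089). BC15, a chitinase-like protein, had 298, 120.5 and 264 FPKM in TAC4-KO and 83.1, 52.6 and 65.7 FPKM in WT (1.67, limma adjusted p = 0.0076). These 2 were called with any library left out. BC1, a COBRA-like protein of cellulose assembly, overlapped between the groups, at 214, 35.1 and 73.0 FPKM in TAC4-KO and 38.5, 24.4 and 21.1 FPKM in WT. Its call (1.57, limma adjusted p = 0.0495) held only narrowly, and it was lost under 11 alternatives. They included TAC4-KO replicate 1 (0.88) or 3 (1.65) left out and WT replicate 1 (1.81), 2 (1.49) or 3 (1.39) left out, whereas without TAC4-KO replicate 2 the change was 2.17. BC10, a Golgi glycosyltransferase-like protein, had 11.96 ± 4.09 FPKM in TAC4-KO and 5.80 ± 1.29 FPKM in WT (SD, n = 3 each; log2 change 0.89), and lost its call without TAC4-KO replicate 1 (0.71) or 3 (0.80) or WT replicate 1 (0.73). The endoglucanase GLU1, lower at 7.68 ± 1.69 FPKM in TAC4-KO and 14.5 ± 5.02 FPKM in WT (SD, n = 3 each; log2 change -0.81), lost its call without TAC4-KO replicate 3 (-0.64) or WT replicate 1 (-0.56). The kinesin BC12 and the nucleotide sugar transporter BC14 did not pass (0.09 and 0.36).

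Among transcription factors that switch on secondary wall genes, 5 were tested, of which 2 were higher and 0 lower. SWN1, a NAC switch, had 37.2, 30.8 and 23.7 FPKM in TAC4-KO, against 17.99, 9.30 and 10.3 FPKM in WT (1.26, SE 0.31, limma adjusted p = 0.0096). MYB58/63, an activator of lignin genes, had 12.2, 9.23 and 12.6 FPKM in TAC4-KO and 2.23, 1.56 and 7.59 FPKM in WT. Its call (1.56, limma adjusted p = 0.015) was lost without TAC4-KO replicate 3 (1.49) or WT replicate 2 (1.22). SWN2, MYB103L and MYB61 did not pass (-0.29, 0.43 and -0.41), and their groups overlapped.

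Lignin genes were more often higher, with 8 of 24 tested called higher and 2 lower (30 listed, median 0.61). Without WT replicate 3 the counts were 12 and 0, and without TAC4-KO replicate 1 or 3 they were 7 and 0. CCoAOMT LOC_Os06g06980, a methyltransferase of the monolignol path, had 244, 227 and 342 FPKM in TAC4-KO, against 60.9, 50.4 and 80.6 FPKM in WT (2.07, SE 0.25, limma adjusted p = 0.00041). HCT LOC_Os04g42250, the shikimate transferase of that path, had 264, 313 and 328 FPKM in TAC4-KO and 143, 109.8 and 128 FPKM in WT (1.25, limma adjusted p = 0.0019). TAC4-KO and WT libraries did not overlap in either gene. Phenylalanine ammonia-lyase (PAL) opens the pathway, and its genes went separate ways. PAL LOC_Os04g43760 had 158, 127 and 177 FPKM in TAC4-KO, against 37.9, 39.3 and 38.6 FPKM in WT (1.96, limma adjusted p = 0.0011). The dominant PAL gene LOC_Os02g41630 did not pass, at 3271, 3113 and 2119.8 FPKM in TAC4-KO and 4552, 3176 and 2263 FPKM in WT (-0.20).

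The 2 lower lignin calls were in genes with their highest value in WT replicate 3. PAL LOC_Os02g41670 had 0.203, 2.64 and 0.519 FPKM in TAC4-KO, against 6.97, 8.57 and 38.4 FPKM in WT (-2.94, limma adjusted p = 0.021). That call was lost without WT replicate 3 (-2.22), TAC4-KO replicate 1 (-2.62) or TAC4-KO replicate 3 (-2.79). The ligase gene 4CL5 had 0.519, 3.106 and 0.998 FPKM in TAC4-KO and 7.13, 8.68 and 43.1 FPKM in WT (-2.71, limma adjusted p = 0.016). Its call was lost without WT replicate 3 (-1.94), TAC4-KO replicate 1 (-2.40) or TAC4-KO replicate 3 (-2.60). C4H LOC_Os01g60450, counted among the higher calls, was listed at 0 in all 3 WT libraries and at 0.788, 1.54 and 6.80 FPKM in TAC4-KO, and no fold is given. Of 8 xylan and mixed-linkage glucan genes IRX9, of the xylan backbone, was called, at 16.8, 17.1 and 17.3 FPKM in TAC4-KO and 9.40, 3.38 and 7.24 FPKM in WT (1.33, limma adjusted p = 0.0055).

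Expansins, which loosen walls for growth, held 0 higher and 3 lower of 11 tested (14 listed, median -0.53). EXPA5 had 0.278, 0.993 and 0.315 FPKM in TAC4-KO, against 6.49, 3.54 and 12.04 FPKM in WT (-2.35, SE 0.49, limma adjusted p = 0.0046). EXPB4 had 6.74, 7.36 and 5.67 FPKM in TAC4-KO and 30.8, 20.6 and 17.9 FPKM in WT (-1.64, limma adjusted p = 0.0038). EXPB11 overlapped between the groups, at 6.83, 0.771 and 0.396 FPKM in TAC4-KO and 13.4, 4.63 and 34.4 FPKM in WT. Its call (-2.40) was lost when TAC4-KO replicate 2 (-2.10), TAC4-KO replicate 3 (-1.93), WT replicate 1 (-2.40) or WT replicate 3 (-1.74) was left out, and the change was -3.18 without TAC4-KO replicate 1 and -3.07 without WT replicate 2.

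Genes of dehydration and abscisic acid response were lower in TAC4-KO. All 7 tested members were lower and 5 of the 12 listed lay under the filter, the 4 RAB16 dehydrin genes and LEA3. The median log2 change was -2.27, and the summed level was 428, 930 and 292 FPKM in TAC4-KO, against 2539, 1774 and 1634 FPKM in WT. SNAC1, a NAC factor that closes stomata under drought, had 26.3, 81.7 and 12.7 FPKM in TAC4-KO, against 464, 400.0 and 331 FPKM in WT. It fell by 3.66 (SE 0.50, limma adjusted p = 0.00069), by 4.36 without TAC4-KO replicate 2 and by 3.06 without TAC4-KO replicate 3. NAC6, a stress NAC factor, had 29.4, 51.2 and 36.1 FPKM in TAC4-KO and 154, 235 and 195 FPKM in WT (-2.31, SE 0.24, limma adjusted p = 0.00026). NCED3, the committed step of abscisic acid synthesis, had 3.51, 3.95 and 3.75 FPKM in TAC4-KO and 99.2, 19.7 and 14.2 FPKM in WT. TAC4-KO libraries were almost equal in NCED3, and its log2 change of -2.74 (limma adjusted p = 0.0052) became -1.91 without WT replicate 1. BZIP23, an abscisic acid signalling factor, had 12.6, 10.7 and 9.37 FPKM in TAC4-KO and 47.2, 24.5 and 19.2 FPKM in WT (-1.30, limma adjusted p = 0.0076). The list count fell to 4 without TAC4-KO replicate 1, TAC4-KO replicate 3 or WT replicate 3.

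Aquaporins are the water channels of cell membranes. Of 5 tested members 4 were lower and 0 higher (10 listed, median -0.97). The remaining tested member, PIP2;6, was not called, and its TAC4-KO libraries all lay above its WT libraries. The summed level of the 10 listed was 830.1, 949 and 713 FPKM in TAC4-KO, against 1996, 2036 and 1343 FPKM in WT. PIP1;2 had 175, 147 and 121 FPKM in TAC4-KO, against 731, 587 and 487 FPKM in WT (-2.02, SE 0.24, limma adjusted p = 0.00036). PIP2;2 had 15.7, 22.5 and 19.2 FPKM in TAC4-KO and 57.5, 76.0 and 54.2 FPKM in WT (-1.66, limma adjusted p = 0.00083). PIP2;1 had 130.2, 189 and 128 FPKM in TAC4-KO and 303, 329 and 241 FPKM in WT (-0.97, limma adjusted p = 0.0038). No TAC4-KO library reached the WT range in these 3. PIP1;1, the most abundant, had 407 ± 71.7 FPKM in TAC4-KO and 774 ± 231 FPKM in WT (SD, n = 3 each; log2 change -0.89), a call lost when TAC4-KO replicate 1 (-0.86), TAC4-KO replicate 3 (-0.79), WT replicate 1 (-0.82) or WT replicate 2 (-0.71) was left out.

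Of 14 tested jasmonate genes, 1 was higher and 4 lower (16 listed, median -0.76). The lower calls were AOS1 and 3 genes for JAZ repressors, which the hormone itself induces, and the higher call, the receptor gene COI1a (0.64), was lost with each of the 6 libraries left out. TIFY11d, a JAZ repressor, had 0.969, 6.03 and 1.799 FPKM in TAC4-KO, against 61.2, 66.0 and 155 FPKM in WT (-4.68, SE 0.92, limma adjusted p = 0.0033). TIFY11e had 0.172, 0.315 and 0.181 FPKM in TAC4-KO and 5.15, 8.07 and 17.8 FPKM in WT (-3.06, limma adjusted p = 0.0093). TIFY11c had 0.242, 0.970 and 0.140 FPKM in TAC4-KO and 6.51, 10.6 and 75.1 FPKM in WT (-3.74, limma adjusted p = 0.0053), or -2.73 without WT replicate 3 and -4.40 without WT replicate 1. WT replicate 3 was the highest library in all 3, and each call held without it. The synthesis gene AOS1 had 7.66, 19.4 and 8.74 FPKM in TAC4-KO, against 44.2, 29.8 and 125 FPKM in WT (-2.22, limma adjusted p = 0.013). It became -1.64 without WT replicate 3, and its call was lost without TAC4-KO replicate 1 (-1.99). Of 3 tested defence genes (5 listed, median -0.39), 1 was lower and 0 higher. This was the salicylate co-receptor gene NPR1, with 1.86, 6.60 and 2.49 FPKM in TAC4-KO and 15.8, 19.2 and 25.3 FPKM in WT (-2.29, SE 0.36, limma adjusted p = 0.0012). PBZ1 and WRKY45 did not pass, and 1 of them had every TAC4-KO library above every WT library.

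**Figure D5:**
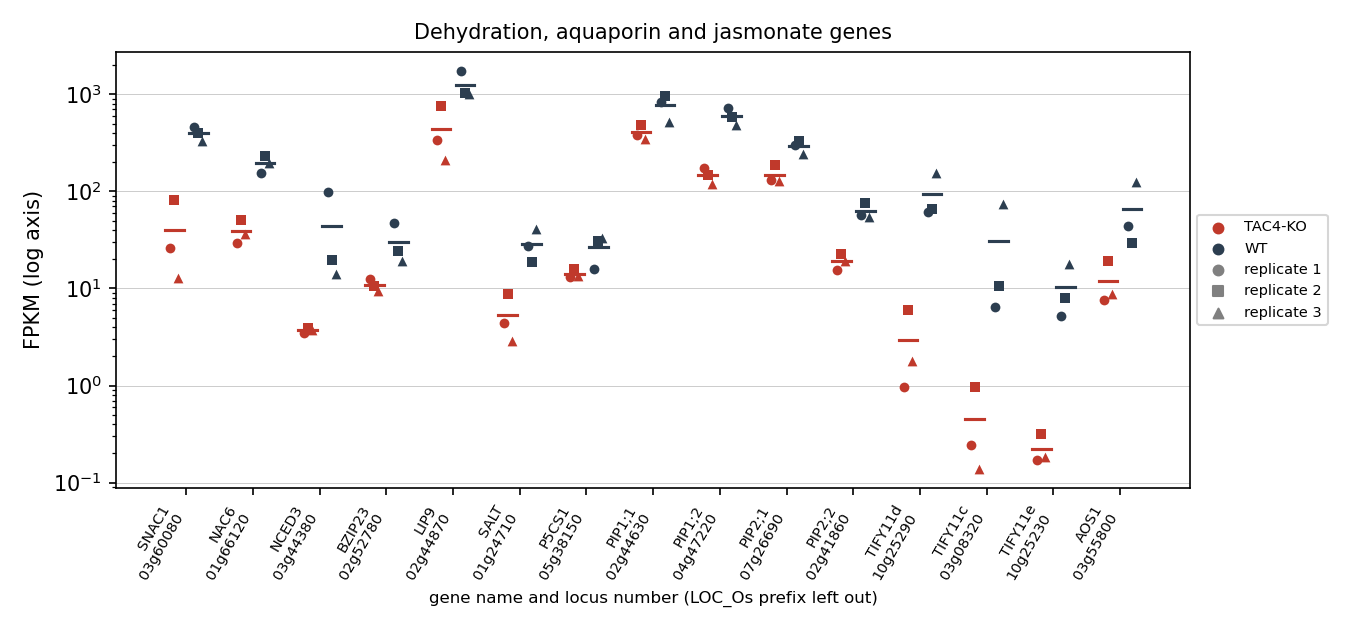
FPKM (log axis) of dehydration, aquaporin and jasmonate genes in each library, TAC4-KO in red left of WT in dark blue, with a bar at the group mean of 3 libraries. Only members of these lists that were called lower are drawn, and each has all TAC4-KO libraries below all WT libraries. TAC4-KO replicate 2 (squares) is the highest TAC4-KO library in most of them.

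Of 14 tested gibberellin genes, 1 was higher and 5 lower (18 listed, median -0.25), the synthesis genes KO2 and KAO (-0.69 and -1.16) among the lower. Both of these calls were lost without TAC4-KO replicate 3 or WT replicate 2, which left 3 lower, and that of KO2 also without TAC4-KO replicate 1 or WT replicate 3. The inactivating oxidase GA2ox4 had 1.15, 1.59 and 0.935 FPKM in TAC4-KO, against 19.6, 26.0 and 15.6 FPKM in WT (-3.25, SE 0.27, limma adjusted p = 9.4e-05). GA2ox3, of the same enzyme class, had 6.50, 26.4 and 5.34 FPKM in TAC4-KO and 124, 91.8 and 95.5 FPKM in WT (-3.25, limma adjusted p = 0.0021), or -3.91 without TAC4-KO replicate 2. The receptor gene GID1 had 57.9, 60.7 and 41.5 FPKM in TAC4-KO and 138, 150.4 and 114 FPKM in WT (-1.32, limma adjusted p = 0.00071). SD1, the biosynthetic oxidase of the semidwarf locus, rose, at 8.10, 8.67 and 10.2 FPKM in TAC4-KO, against 2.41, 2.53 and 1.06 FPKM in WT (1.77, SE 0.24, limma adjusted p = 0.00062). SLR1, the DELLA repressor of the pathway, did not pass (-0.25, limma adjusted p = 0.32).

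Of 9 tested brassinosteroid genes, 1 was higher and 3 lower (10 listed). Without TAC4-KO replicate 1 the counts were 0 and 1. The higher call, the co-receptor kinase BAK1 (0.58), was lost without TAC4-KO replicate 1 (0.51) or 3 (0.54). The lower call of DWARF4, a synthesis enzyme (-0.87), was lost without TAC4-KO replicate 1 (-0.68), TAC4-KO replicate 3 (-0.76), WT replicate 1 (-0.80) or WT replicate 2 (-0.83). BU1, a helix-loop-helix gene induced by the hormone, had 0.221, 0.775 and 0 FPKM in TAC4-KO, against 5.998, 3.08 and 2.52 FPKM in WT (-1.84, SE 0.28, limma adjusted p = 0.0010). GSK2, a kinase that restrains the pathway, had 5.70 ± 0.453 FPKM in TAC4-KO and 10.1 ± 1.47 FPKM in WT (SD, n = 3 each; log2 change -0.72), a call lost without TAC4-KO replicate 1 (-0.67). In strigolactone signalling, which holds back tiller outgrowth, 2 of 6 tested genes were higher and 2 lower. D14, the receptor, had 102, 227 and 104 FPKM in TAC4-KO and 318, 469 and 283 FPKM in WT (-1.37, SE 0.32, limma adjusted p = 0.0078). D3, the F-box partner of the receptor, had 4.68, 8.05 and 4.34 FPKM in TAC4-KO and 12.9, 13.97 and 14.2 FPKM in WT (-1.18, limma adjusted p = 0.0016). D17, a carotenoid-cleaving enzyme of synthesis, rose by 0.99 (limma adjusted p = 0.0082). IPA1, a transcription factor of plant architecture, had 4.73, 4.04 and 4.14 FPKM in TAC4-KO and 2.05, 1.82 and 0.943 FPKM in WT (1.05, limma adjusted p = 0.0082).

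Of 7 tested circadian clock genes, 3 were higher and 0 lower (median -0.02), and 1 was lower without WT replicate 1 or 3. PRR73, a pseudo-response regulator, had 40.6, 31.8 and 34.8 FPKM in TAC4-KO, against 10.4, 9.49 and 7.26 FPKM in WT (1.88, SE 0.26, limma adjusted p = 0.00069). PRR37 rose by 1.36 and GI (GIGANTEA) by 1.04 (limma adjusted p = 0.0044 and 0.0099). LHY, PRR1, ELF3-1 and LUX did not pass (-0.09, -0.02, -0.42 and -0.45). The labels give no hour of harvest.

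Among developmental genes, the BELL homeobox gene SH5 had 76.1, 76.7 and 57.5 FPKM in TAC4-KO, against 24.0, 14.8 and 6.54 FPKM in WT (2.29, SE 0.34, limma adjusted p = 0.0010). The KNOX gene OSH43 had 4.81, 3.44 and 1.91 FPKM in TAC4-KO and 7.81, 10.6 and 19.9 FPKM in WT (-1.61, limma adjusted p = 0.0047). The remaining 4 tested genes of that list did not pass, and without WT replicate 1 the list held 2 higher calls. Of the 4 tested cell cycle genes 0 were called by limma, with log2 changes from -0.65 to -0.11, and CDKB1 alone had an unadjusted p under 0.05. Without TAC4-KO replicate 2 or WT replicate 1, 1 was called lower.

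Markers of other organs were mostly low, apart from MADS16 and LSI1. Of 13 floral MADS-box genes, 11 lay under the filter and 4 were listed at 0 in all 6 libraries, and their summed level was 34.1, 38.3 and 44.9 FPKM in TAC4-KO, against 37.6, 28.8 and 20.4 FPKM in WT, most of it MADS16. The tested MADS16 and MADS34 did not pass (0.35 and 0.77), and of the pair MADS34 had an unadjusted p under 0.05. Without TAC4-KO replicate 1, 1 of them was called higher. Of 3 root markers, LSI2 and PIN2 were at or near 0 in all 6 libraries. The silicon channel gene LSI1 had 4.45, 19.5 and 9.85 FPKM in TAC4-KO and 29.7, 25.6 and 30.9 FPKM in WT (-1.47, limma adjusted p = 0.026). Its call was lost when TAC4-KO replicate 1 (-0.99), TAC4-KO replicate 3 (-1.49), WT replicate 1 (-1.45) or WT replicate 3 (-1.42) was left out. Of 5 common reference genes 0 were called by limma (median 0.00), though UBQ5 and EF1A had every TAC4-KO library below every WT library (-0.60 and -0.49) and EF1A had an unadjusted p under 0.05. What part the changes in these organ markers had in the other results was not tested.

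Beyond the lists, 2 loci rose most among genes with separate groups. LOC_Os06g13700 had 66.1, 23.2 and 57.8 FPKM in TAC4-KO, against 1.01, 1.66 and 1.18 FPKM in WT (4.34, SE 0.36, limma adjusted p = 9.4e-05). LOC_Os03g45800 had 61.6, 19.3 and 91.3 FPKM in TAC4-KO and 5.15, 1.54 and 0.133 FPKM in WT (4.23, limma adjusted p = 0.0016). WT replicate 3 was lowest and WT replicate 1 highest at LOC_Os03g45800, and its change was 3.63 without WT replicate 3, 4.85 without WT replicate 1 and 4.87 without TAC4-KO replicate 2. The 2 loci that fell most were LOC_Os09g10010 and LOC_Os08g37660. LOC_Os09g10010 had 3.14, 6.10 and 4.15 FPKM in TAC4-KO, against 279.7, 416 and 948 FPKM in WT (-6.49, SE 0.71, limma adjusted p = 0.00029). LOC_Os08g37660 had 0.730, 1.44 and 0.537 FPKM in TAC4-KO and 152, 73.9 and 161 FPKM in WT (-6.04, limma adjusted p = 0.00060). LOC_Os06g13700 averaged 60.7 FPKM in TAC4L-KO and 80.9 FPKM in double-KO, against 49.0 FPKM in TAC4-KO. In the same order LOC_Os03g45800 averaged 10.5, 61.2 and 57.4 FPKM, LOC_Os09g10010 41.8, 3.44 and 4.47 FPKM, and LOC_Os08g37660 14.4, 1.25 and 0.901 FPKM. None of these loci passed between TAC4-KO and TAC4L-KO (limma adjusted p = 0.081 to 0.595) or between double-KO and TAC4-KO (0.142 to 0.878). The files give these loci no name.

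TAC4-KO was also compared directly with the other mutants. Between TAC4-KO and TAC4L-KO 584 genes (3.04%) were called, 322 higher and 262 lower. In starch synthesis 9 of 19 members were higher and 0 lower in TAC4-KO. AGPL1 averaged 1424 ± 966 FPKM in TAC4-KO and 117 ± 62.4 FPKM in TAC4L-KO (SD, n = 3 each; log2 difference 3.51, limma adjusted p = 0.0073). Light-harvesting genes were higher than in TAC4L-KO for 9 of 12 members, led by LOC_Os01g52240 with 4997 ± 453 FPKM in TAC4-KO and 342 ± 95.7 FPKM in TAC4L-KO (3.90, limma adjusted p = 0.0050). The aquaporins PIP1;2 and PIP2;2 were lower than in TAC4L-KO (-1.73 and -1.49, limma adjusted p = 0.0073 and 0.013), as was GA2ox4 (-2.30, limma adjusted p = 0.0050). LAZY1 and TAC1 did not pass in this comparison (-0.86 and 0.44, limma adjusted p = 0.065 and 0.33), and neither did any dehydration gene. The 7 tested dehydration genes had a median log2 difference of -0.99, against -0.09 over all genes. With 3.04% of all genes called, the lack of calls does not show that the 2 mutants were alike in them.

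Between the double-KO and TAC4-KO 2883 genes (15%) were called, 937 higher and 1946 lower in the double-KO. All 3 secondary wall cellulose synthases were lower in the double-KO, CESA4 at 27.8 ± 10.9 FPKM in double-KO and 293 ± 170.3 FPKM in TAC4-KO (SD, n = 3 each; log2 difference -3.28, limma adjusted p = 0.00064). The primary wall synthases were not called in either direction. Starch synthesis genes were higher still in the double-KO, with 10 of 19 members called, among them AGPL1 at 6328 ± 379 FPKM in double-KO and 1424 ± 966 FPKM in TAC4-KO (2.38, limma adjusted p = 0.0068). Light harvesting showed no further rise, with 0 of 12 members higher and 2 lower in the double-KO. The 4 aquaporins that fell in TAC4-KO were higher in the double-KO than in TAC4-KO, by 0.67 for PIP2;1 to 1.11 for PIP1;2 (limma adjusted p = 0.040 and 0.0095). These 4 were picked as low in the same TAC4-KO libraries. That choice alone can raise the difference, and its part was not tested. Of 24 Aux/IAA genes, 14 were lower in the double-KO than in TAC4-KO and 0 higher.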

How the data were processed

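Messenger RNA of rice culms was sequenced. Libraries were made from fragmented poly(A) RNA with random-hexamer priming, per the labels' protocols. The authors deposited FPKM values, 1 column per library for 12 libraries in 4 groups of 3. HISAT2 was used, per the submitters' processing notes. Which program made the FPKM, on which genome build and annotation, and whether strand was used, is not given in the sources used here, so antisense partners and near-identical copies (antenna, PAL and Rubisco small subunit genes) cannot be told apart. No counts were used and absolute depth is unknown.

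The 12-library mean had to reach 1 FPKM for a gene to be tested. The test used log2(FPKM + 1), a scale that understates the change of low genes, in limma 3.58.1 (R 4.3.3). One model held all 12 libraries, with a trended prior and residual degrees of freedom of 8. Benjamini-Hochberg adjustment ran over 19184 genes, and calls were made at 0.05. The fit was tested on simulated data. TAC4 alone was also given an exact permutation test.

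The members and lists were chosen with earlier results of these data known. Lists are described by counts and medians beside those of all genes, with no set test. Named, as far as they helped the account, were genes among TAC4 and TAC4L, all tested cellulose synthase, brittle culm, wall regulator and tiller angle genes, the 15 largest and 15 most negative list changes with separate groups, in each remaining list up to 4 members with the smallest p, and 2 loci in each direction beyond the lists. The others this rule picked stand only in the counts and medians. A few other list members (such as SSI, BEI, PHO1, SUS1, SWEET13 and the genes given as not passing) were chosen after their values were seen.

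Neither the table nor the reference (assembly ASM3414082v1) pairs these identifiers with names, and 0 identifiers matched. Names were paired from published rice nomenclature, and any mistaken pair names the wrong gene. Of 360 list genes, 225 symbols lay on the chromosome the identifier states, 10 only on another (5 PAL loci, SPS1, PSAG, LPA1, UBQ5 and TIP41) and 125 were not found. The locus listed for D27 is not analysed here. Alternatives were other filters, pseudocounts, scalings, priors and sample sets, the replicate block, and each of the 6 libraries left out. One lignin gene that the naming rule picked is not reported here by name.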

Additional observations from a re-analysis of the deposited data

How the results depend on the processing

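The count of 6693 genes called between TAC4-KO and WT ran from 4334 (without TAC4-KO replicate 3) to 6330 with a library left out, the higher calls from 2280 to 3516 and the lower calls from 2054 to 3353. A fold of at least 2 left 3619 genes, 1824 higher and 1795 lower. A mean of at least 5 FPKM left 12938 genes to test in place of 19184, of which 2637 were higher and 2061 lower. With a pseudocount of 0.1 in place of 1, 117 genes were higher and 489 lower by at least 8-fold, against 39 and 228, and leaving out a library gave 28 to 60 and 187 to 296. Fitting only the 6 libraries gave 4949 calls. Among genes named above, that fit lost the calls of AUX1, BC1, BC10, GLU1, EXPB11, GLK1, BAK1, DWARF4, PIP1;1, KO2 and KAO. It also lost those of GWD1, SEX4, SUS5, SUS6 and SUT4. These calls rest on a spread estimated with the other mutant lines. TAC4 stayed higher under every alternative, with limma adjusted p from 0.0044 to 0.034. Primary wall synthases called higher ran from 2 to 5 and dehydration genes called lower from 4 to 7 with a library left out. Deviations of TAC4-KO replicates 1 to 3 correlated with those of the same-numbered WT library at 0.055, -0.0012 and 0.135. The highest values with other numbers were 0.108, 0.0026 and -0.063. Replicate 3 alone correlated more with its own number, so whether replicate numbers pair the samples was not settled. With the replicate block 5969 genes were called, 3134 higher and 2835 lower. Of 140 calls among list genes 99 (64 higher and 35 lower) held under every alternative that tested them, and 0 named genes reversed. WT replicate 1 had the lowest depth, which limits low genes most.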
